A study of Mus musculus with 6 samples.

Results

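The apelin and adrenomedullin ligands and receptors were 7 genes of 19288 in the table: the ligand genes Apln and Adm, the receptor genes Aplnr and Calcrl, and the receptor partner genes Ramp1, Ramp2 and Ramp3. They were found by gene symbol, each had 1 gene ID, and all 7 passed the filter that left 13632 genes for testing. The set was chosen by symbol as 2 peptide systems, after the fold changes of Adm and Aplnr between these groups had been seen, so the levels and fold changes below are descriptions and support nothing by themselves. The tumours grew from LLC1, a Lewis lung carcinoma line, implanted under the skin of mice that carry a beta-hCG transgene and were bred from C57BL/6 females and transgenic FVB males. The 3 groups are called by what the host was: ovariectomized and given progesterone (progesterone tumours), ovariectomized and given the vehicle (vehicle tumours), or labelled with neither ovariectomy nor supplementation (transgenic tumours). Each group had 2 libraries, progesterone or vehicle was given for 28 days, tumours were taken on day 30, and every host carried the transgene, so no group is free of it. Age, transgene promoter and progesterone dose were not given in the sources used here, and it is not labelled whether the 2 libraries of a group came from separate animals. Progesterone against vehicle asks what progesterone changes in ovariectomized hosts, while in vehicle against transgenic tumours ovariectomy and the vehicle cannot be told apart.

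Apelin is a secreted peptide that signals through the apelin receptor, a G protein-coupled receptor best known on endothelial cells of growing vessels. Adrenomedullin, a vasodilator peptide of the calcitonin family, signals through the calcitonin receptor-like receptor Calcrl, which reaches the cell surface only with a receptor activity-modifying protein. Ramp2 and Ramp3 make Calcrl an adrenomedullin receptor and Ramp1 makes it a receptor for calcitonin gene-related peptide. Both ligand genes are known to be induced by hypoxia.

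The promoters of the 2 ligand genes are shown because these genes had their highest levels in the same libraries and because hypoxia-inducible factors bind a core of ACGTG or GCGTG. RefSeq promoters of GRCm38.p6 were found for 5 of the 7 genes. The last 150 bases before the RefSeq start are printed 5′ to 3′ on the strand of the gene (Adm chr7:110627507-110627656, plus strand; Apln chrX:48034854-48035003, minus strand), with matches to either core on either strand in capitals.
Adm promoter: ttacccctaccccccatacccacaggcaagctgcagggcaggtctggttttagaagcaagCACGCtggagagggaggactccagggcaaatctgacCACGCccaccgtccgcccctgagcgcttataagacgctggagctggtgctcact
Apln promoter: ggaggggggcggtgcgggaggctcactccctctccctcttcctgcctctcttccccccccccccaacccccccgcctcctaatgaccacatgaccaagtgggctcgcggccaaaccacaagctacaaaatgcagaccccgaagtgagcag
The Adm window held 2 matches, both GCGTG on the opposite strand, starting 90 and 54 bases before the start. The Apln window held 0. Of the other 3 promoters found, that of Ramp3 held GCGTG on the strand of the gene, starting 65 bases before its start, and on the opposite strand, 219 bases before it. Over the full 250 bases, 2 of the 5 promoters held a match, those of Adm and Ramp3, where 38.6% of all promoters did. Of 32851 promoters in the table, 28.6% held at least 1 match in the last 150 bases. A match describes these letters and is not a binding site.

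Library totals ran from 19526775 to 30083925 counts, with the 2 vehicle libraries at these extremes. Replicates correlated across genes at Spearman 0.974 in the progesterone, 0.986 in the vehicle and 0.969 in the transgenic group. Transgenic library 2 stood apart on the first principal component (-54.5, others -23.2 to 32.7) and progesterone library 2 on the second (62.9, others -22.3 to 0.68). Of the epithelial markers, Krt8 ranged from 135 to 393 CPM (counts scaled by TMM to a library size of 1000000) over the 6 libraries, whereas Epcam stayed at or below 0.222 and the lung gene Sftpc at or below 0.0370 CPM. The counts do not separate tumour cells from host cells, and fewer cells of a type and less RNA per cell cannot be told apart.

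Apln was lowest in the progesterone tumours and highest in the vehicle tumours. The gene (ENSMUSG00000037010) lies on chromosome X at 48025146 to 48034853, minus strand, GRCm38. It had 35.4 and 74.2 CPM in progesterone tumours, 162 and 134 CPM in vehicle tumours, and 122 and 91.8 CPM in transgenic tumours. No 2 groups overlapped, although the progesterone libraries differed from each other by more than those of either other group. The means were 54.8 ± 27.4 CPM in progesterone, 148 ± 20.0 CPM in vehicle and 107 ± 21.6 CPM in transgenic tumours (SD, n = 2 each). The log2 fold change was -1.44 ± 0.34 (SE) for progesterone against vehicle, 0.47 ± 0.34 for vehicle against transgenic and -0.97 ± 0.34 for progesterone against transgenic tumours. Without progesterone library 1, the lower one, the values were -1.003 against vehicle and -0.53 against transgenic tumours, and without progesterone library 2 they were -2.06 and -1.59.

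Adm stood out in the vehicle tumours alone. The gene (ENSMUSG00000030790) lies on chromosome 7 at 110627661 to 110629820, plus strand. Its levels were 98.6 and 96.6 CPM in progesterone tumours, 286 and 193 CPM in vehicle tumours, and 125 and 63.9 CPM in transgenic tumours. The progesterone libraries lay between the 2 transgenic libraries and close to each other. The log2 fold change was -1.30 ± 0.33 for progesterone against vehicle and 1.34 ± 0.33 for vehicle against transgenic tumours. For progesterone against transgenic tumours it was 0.043 ± 0.33, and -0.36 without transgenic library 2, and the 2 groups overlapped, where those of Apln did not. The difference between the 2 genes was not tested. Per library, Adm had 5.41 and 2.53 times the RPKM (CPM per kilobase of exon) of Apln in progesterone, 3.43 and 2.80 times in vehicle, and 1.995 and 1.354 times in transgenic tumours.

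**Figure D1:**
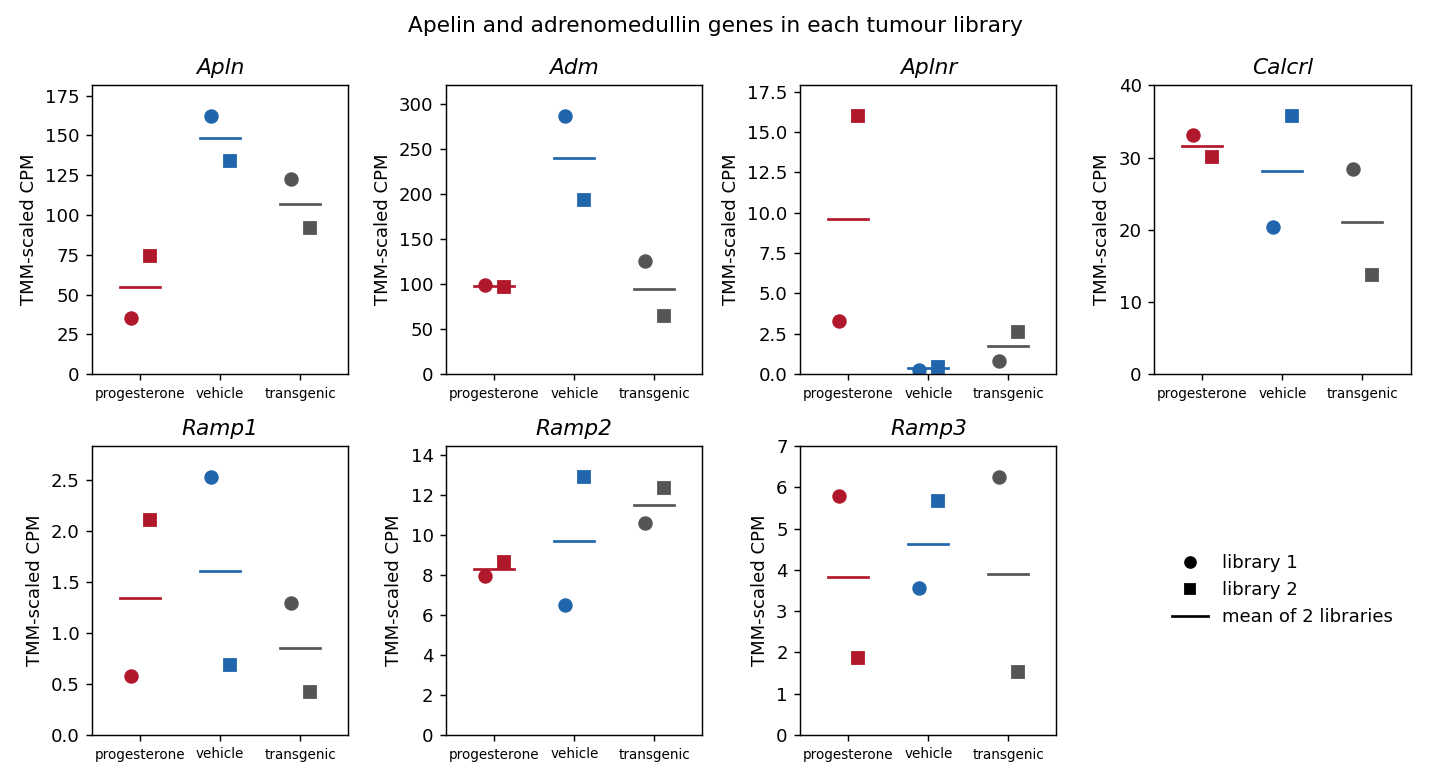
TMM-scaled CPM (vertical axes, each from 0) of the 7 genes in each library, with circles for library 1, squares for library 2 and bars for the mean of 2. The vehicle libraries are the 2 highest for Apln and Adm and the 2 lowest for Aplnr, whereas each Ramp gene has at least 1 group whose 2 libraries span most of its range.

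Aplnr, the apelin receptor gene, ran the other way. The gene (ENSMUSG00000044338) lies on chromosome 2 at 85136225 to 85139923, plus strand. Its raw counts were 85 and 387 in progesterone tumours, 8 and 8 in vehicle tumours, and 22 and 62 in transgenic tumours. These are 3.28 and 15.999 CPM in progesterone, 0.274 and 0.424 CPM in vehicle, and 0.815 and 2.61 CPM in transgenic tumours. No 2 groups overlapped: every progesterone library was above every transgenic library, and these were above the vehicle libraries. Within the progesterone and transgenic groups library 2 was well above library 1, and the mean of 9.64 ± 8.99 CPM in progesterone tumours (SD, n = 2) rests mostly on library 2.

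The log2 fold change of Aplnr was 4.79 ± 0.99 for progesterone against vehicle tumours. It was 3.24 without progesterone library 2 and 5.52 without progesterone library 1, the lowest and the highest value when any 1 library was left out. For vehicle against transgenic tumours it was -2.30 ± 0.94, and -1.23 without transgenic library 2. For progesterone against transgenic tumours it was 2.49 ± 0.86, and 0.94 without progesterone library 2. With 8 reads in each vehicle library, the counting error alone of the vehicle level is large.

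Calcrl, the receptor gene of the adrenomedullin system, overlapped between groups except for progesterone against transgenic tumours. The gene (ENSMUSG00000059588) lies on chromosome 2 at 84330626 to 84425411, minus strand. It had 33.1 and 30.1 CPM in progesterone, 20.4 and 35.8 CPM in vehicle, and 28.4 and 13.7 CPM in transgenic tumours. The vehicle libraries lay on either side of the progesterone ones and overlapped the transgenic ones. The log2 fold changes were 0.17 ± 0.40 for progesterone against vehicle, 0.41 ± 0.40 for vehicle against transgenic and 0.59 ± 0.40 for progesterone against transgenic tumours. In that last comparison the progesterone libraries were both above the transgenic ones, 30.1 CPM in the lower of them against 28.4 CPM in the higher transgenic library.

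The 3 receptor partners showed no separation between progesterone and vehicle tumours or between vehicle and transgenic tumours. Ramp2 (ENSMUSG00000001240, chromosome 11, 101246028 to 101259546, plus strand) had 7.96 and 8.64 CPM in progesterone, 6.52 and 12.9 CPM in vehicle, and 10.6 and 12.4 CPM in transgenic tumours. Its progesterone libraries were below both transgenic ones, at a log2 fold change of -0.47 ± 0.38. Vps25 shares 33.4% of the Ramp2 exon bases on the same strand, so reads there may have been left out or assigned to either gene, and Ramp2 is uncertain to that extent.

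Ramp3 (ENSMUSG00000041046, chromosome 11, 6658521 to 6677475, plus strand) had 5.79 and 1.86 CPM in progesterone, 3.57 and 5.67 CPM in vehicle, and 6.26 and 1.52 CPM in transgenic tumours. Its spread lay within the groups: library 1 was well above library 2 in progesterone and transgenic tumours, and the 3 fold changes were within -0.27 and 0.24 on the log2 scale, each with an SE of 0.78. A pseudogene on the opposite strand, Gm11978, shares 7.32% of its exon bases. Ramp1 (ENSMUSG00000034353, chromosome 1, 91179822 to 91225196, plus strand) was the rarest partner, with 0.579 and 2.11 CPM in progesterone, 2.54 and 0.689 CPM in vehicle, and 1.30 and 0.421 CPM in transgenic tumours. Its groups overlapped in all 3 comparisons, and its SE was 0.93 to 0.94 on the log2 scale.

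By edgeR's quasi-likelihood test, 0 of the 7 genes were called at an adjusted p under 0.05 in any comparison, where 0% of all 13632 genes were. The smallest adjusted p among the 7 was 0.826 for progesterone against vehicle (Aplnr), 0.81 for vehicle against transgenic (Adm) and 0.914 for progesterone against transgenic tumours (Apln and Aplnr). At an unadjusted p under 0.05 there were 3 of 7 for progesterone against vehicle (Apln, Adm, Aplnr; 5.29% of all genes), 2 of 7 for vehicle against transgenic (Adm, Aplnr; 5.57%) and 2 of 7 for progesterone against transgenic tumours (Apln, Aplnr; 5.27%). DESeq2 called 3 for progesterone against vehicle (Apln, Adm and Aplnr, beside 0.572% of the 13103 genes with a DESeq2 adjusted p). It called 1 for vehicle against transgenic (Adm, beside 0.56% of 11782) and 0 for progesterone against transgenic tumours (0.366% of 12839). Ramp1 had no DESeq2 adjusted p for vehicle against transgenic tumours. By limma-voom 0 were called (0% of all genes in each comparison). Since the genes were brought together with some of these values known, nothing is read from these counts.

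Groups did not overlap, with progesterone higher, for 1 of the 7 against vehicle (18.5% of all genes) and, with progesterone lower, for 2 (17.8%). Vehicle tumours were above transgenic tumours without overlap for 2 of the 7 (17.9% of all genes) and below them for 1 (17.7%). Progesterone tumours were above transgenic tumours without overlap for 2 of the 7 (14.5% of all genes) and below them for 2 (14.5%). The median log2 fold change of the 7 was -0.27, 0.41 and 0.043 in these 3 comparisons, beside 0.0065, -0.011 and 0.0062 over all genes tested. The comparisons share libraries, so their values are not independent of each other.

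**Figure D2:**
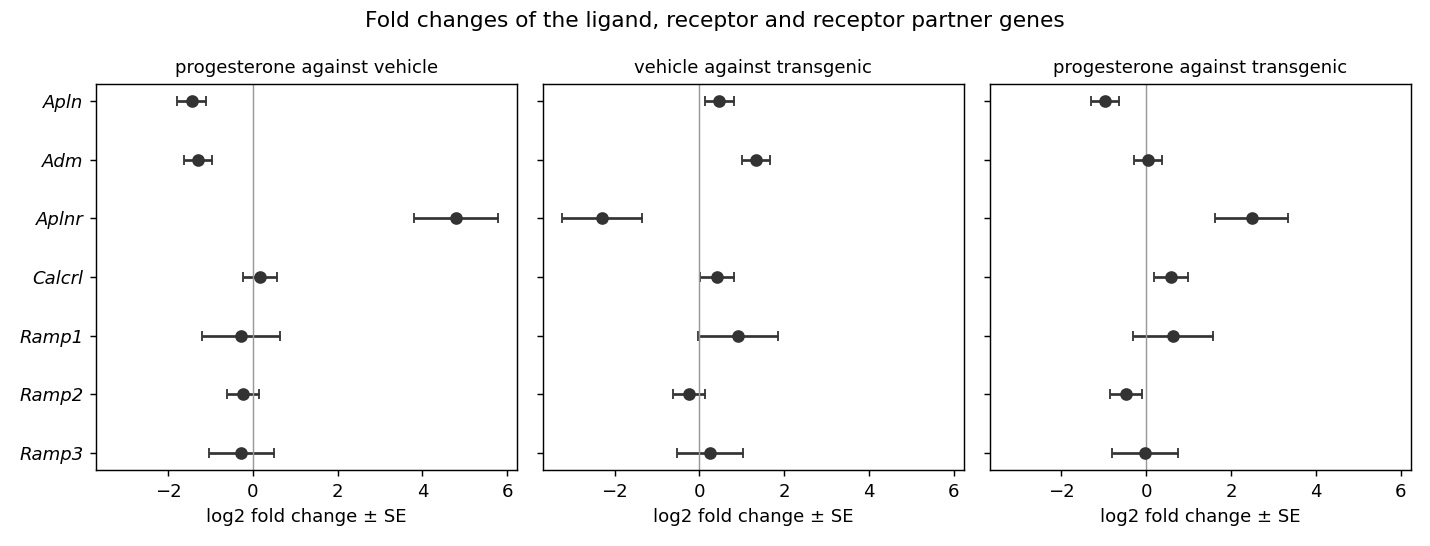
Log2 fold changes (horizontal axes) of the 7 genes with their standard errors (bars) in the 3 comparisons. Aplnr lies at 4.79, -2.30 and 2.49, opposite in sign to Apln each time, and the Ramp genes have bars that reach or come close to 0.

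Per length, the ligand genes were far above the receptor genes. Adm had the highest level, from 39.5 to 177 RPKM over the 6 libraries with a median of 69.2, followed by Apln, from 11.2 to 51.5 RPKM with a median of 34.0. These neighbours overlap over all libraries, although Adm was above Apln in each. Calcrl came next at 2.80 to 7.33 RPKM, then Ramp2 at 1.97 to 3.92 and Ramp3 at 1.10 to 4.53 RPKM, and these 3 ranges overlap. Calcrl and Ramp2 changed places when the longest transcript was taken as the length. Aplnr ranged from 0.0742 to 4.33 RPKM, a spread of 58.3-fold, against 1.98-fold to 6.02-fold in the other 6 genes. Ramp1 was lowest on average, at 0.139 to 0.840 RPKM, and overlapped Aplnr.

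Set against its own receptor in the same library, Apln had 12.7 and 5.45 times the RPKM of Aplnr in progesterone tumours. The ratio was 695 and 371 in vehicle tumours, and 176 and 41.3 in transgenic tumours. The 3 groups were thus in the order progesterone, transgenic, vehicle without overlap, as follows from the order of each gene. Adm had 8.98 and 9.66 times the RPKM of Calcrl in progesterone, 42.4 and 16.3 times in vehicle, and 13.3 and 14.1 times in transgenic tumours. These groups did not overlap either, but the progesterone and transgenic libraries were much closer to each other than for apelin. Aplnr itself reached 0.131 and 0.701 times the RPKM of Calcrl in progesterone tumours, against 0.0178 and 0.0156 times in vehicle and 0.0378 and 0.252 times in transgenic tumours.

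**Figure D3:**
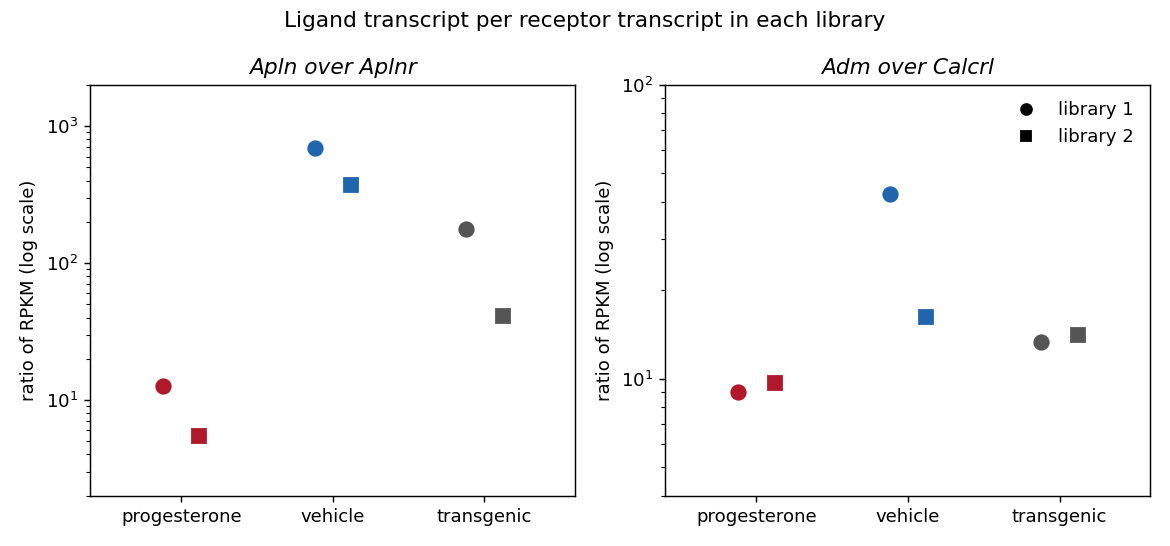
Ratio of ligand to receptor RPKM (vertical axes, log scale) in each library, with circles for library 1 and squares for library 2. The ratio of Apln to Aplnr lies at 12.7 and 5.45 in progesterone and 695 and 371 in vehicle tumours, while that of Adm to Calcrl stays between 8.98 and 42.4 in all 6 libraries.

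The makeup of the partners also varied within groups. Ramp3 made up 61.7% and 28.9% of the summed Ramp RPKM in progesterone, 47.9% and 49.8% in vehicle, and 55.5% and 22.0% in transgenic tumours. Ramp2 made up 35.4% and 56.1% in progesterone, 36.6% and 47.5% in vehicle, and 39.3% and 75.2% in transgenic tumours. The ratio of the 2 adrenomedullin partners, Ramp3 to Ramp2, was thus 1.74 and 0.515 in progesterone, 1.31 and 1.05 in vehicle, and 1.41 and 0.293 in transgenic tumours. Progesterone library 2 and transgenic library 2, which stood apart on the principal components, held the 2 low values. Ramp1 was the smallest share in each library, at 2.76% to 15.6%. These shares and ratios use the union of exons and depend on that choice. With the longest transcript as the length, Ramp2 was above Ramp3 in each library, at means of 6.66 and 3.08 RPKM. By the union of exons both means were 2.98 RPKM.

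Beside the ligands, a list of 15 other genes known to be induced by hypoxia was read. In progesterone against vehicle tumours 0 of 15 were higher and 15 lower (median log2 fold change -0.78, 0 called). In vehicle against transgenic tumours 15 of 15 were higher (median 0.67, 0 called), and in progesterone against transgenic tumours 7 were higher and 8 lower (median -0.022, 0 called). The 4 most abundant were lactate dehydrogenase A (Ldha), phosphoglycerate kinase (Pgk1), the glucose transporter Slc2a1 and the oxygen-sensing hydroxylase Egln3. Slc2a1 had 630 and 367 CPM in progesterone, 919 and 795 CPM in vehicle, and 402 and 256 CPM in transgenic tumours, whereas Ldha had 1671 and 1221, 1607 and 1715, and 1647 and 1414 CPM in the same groups.

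The mean of the hypoxia list was 7.36 and 7.40 log2 CPM in progesterone, 8.241 and 8.003 in vehicle, and 7.64 and 7.08 in transgenic libraries. Adm was lowest and highest in the same libraries as this list. Its distance from the list mean was -0.74 and -0.80 in progesterone, -0.079 and -0.41 in vehicle, and -0.66 and -1.08 in transgenic tumours. Apln lay further below the list in the progesterone tumours, at -2.21 and -1.18, against -0.90 and -0.94 in vehicle and -0.70 and -0.56 in transgenic tumours. The departure was mostly that of progesterone library 1, as progesterone library 2 was closer to the vehicle libraries than to it. The part of hypoxia in these levels was not tested.

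Aplnr and Calcrl are known from endothelial cells, so 12 endothelial markers were read beside them, and all 12 passed the filter. Their summed level was 131 and 307 CPM in progesterone, 293 and 289 CPM in vehicle, and 290.0 and 350 CPM in transgenic libraries. The pan-endothelial junction gene Pecam1 had 35.3 and 91.5 CPM in progesterone, 72.9 and 62.7 CPM in vehicle, and 78.0 and 99.5 CPM in transgenic tumours. The markers did not move alike. For progesterone against vehicle tumours the log2 fold change was -1.74 ± 0.24 for Vwf and -1.09 ± 0.25 for Cldn5, without overlap. It was -0.096 ± 0.40 for Pecam1 and 0.81 ± 0.61 for Tek, which overlapped. Progesterone library 1 had the lowest summed endothelial level of the 6, and an Aplnr level of 3.28 CPM. The part of endothelial content in the Aplnr level was not tested. Of the 12 markers 3 were higher and 9 lower in progesterone than in vehicle tumours (median log2 fold change -0.31, 0 called). In vehicle against transgenic tumours 1 was higher and 11 lower (median -0.23, 0 called), and in progesterone against transgenic tumours 1 was higher and 11 lower (median -0.49, 0 called).

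Relative to the mean of the endothelial markers, Aplnr lay at -1.14 and -0.079 on the log2 scale in progesterone, at -5.47 and -4.91 in vehicle, and at -4.21 and -2.77 in transgenic tumours. The groups did not overlap on this scale, and the 2 progesterone libraries differed by less than their log2 CPM of 1.75 and 4.01 did. Calcrl lay at 2.16 and 0.83 in progesterone, 0.38 and 1.24 in vehicle, and 0.79 and -0.41 in transgenic tumours. Its groups overlapped, except for progesterone above transgenic.

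**Figure D4:**
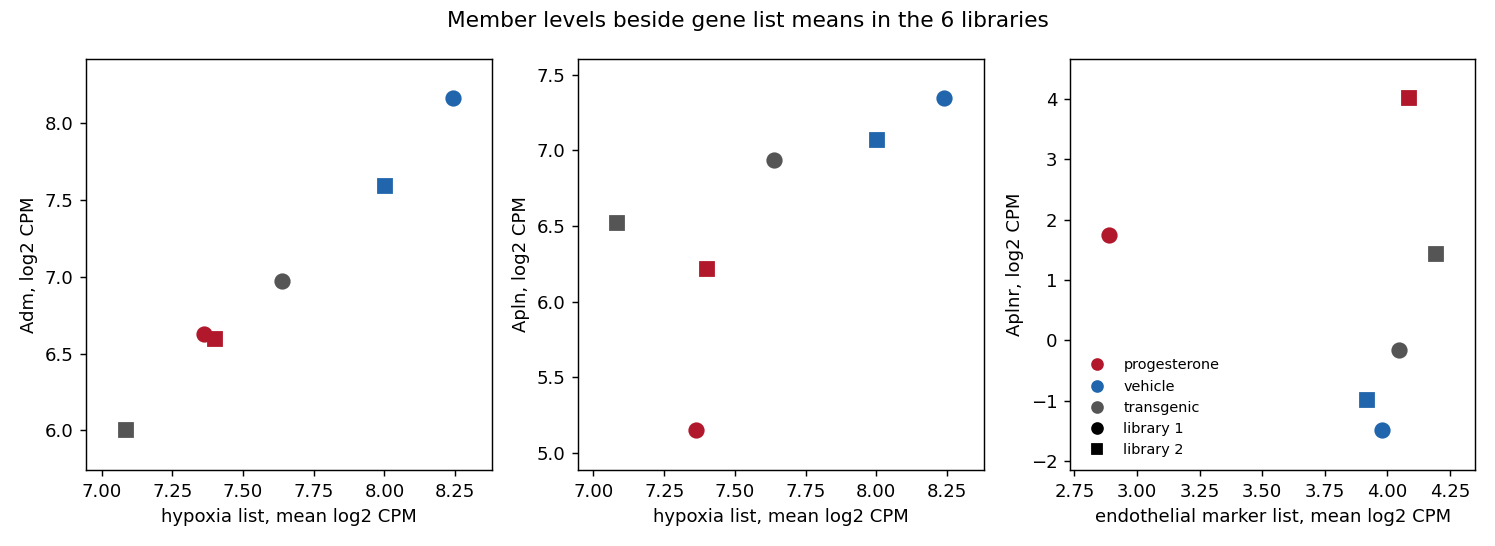
Log2 CPM of Adm, Apln and Aplnr (vertical axes) against the mean log2 CPM of the 15 hypoxia genes or the 12 endothelial markers (horizontal axes) in the 6 libraries, coloured by group. Adm lines up with the hypoxia list, and Apln in progesterone library 1 sits far below it. Aplnr is at 1.75 and 4.01 in progesterone libraries 1 and 2, whose endothelial means are 2.89 and 4.09. In transgenic library 2 Aplnr is at 1.43.

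Marker sets of other cell types were read beside Aplnr. Macrophage markers (5 of 5 past the filter) summed to 715 and 908 CPM in progesterone, 423 and 428 CPM in vehicle, and 264 and 669.5 CPM in transgenic libraries. Mast cell markers (5 of 5) summed to 78.9 and 178 CPM in progesterone, 25.2 and 28.4 CPM in vehicle, and 16.4 and 30.7 CPM in transgenic libraries. Both sums were higher in progesterone than in vehicle tumours without overlap, whereas the vehicle libraries overlapped the transgenic ones, unlike for Aplnr. Of the 5 mast cell markers 4 were higher and 1 lower in progesterone than in vehicle tumours (0 called). The lower one was Kit, the stem cell factor receptor gene of mast cells, with 8.61 and 15.1 CPM in progesterone, 15.0 and 15.7 CPM in vehicle, and 12.6 and 17.4 CPM in transgenic tumours. T cell markers (4 of 4) had low sums of 3.09 and 2.40 CPM in progesterone, 0.754 and 0.212 CPM in vehicle, and 1.07 and 6.24 CPM in transgenic libraries. As for Aplnr, the vehicle libraries were the lowest of the 6, but the progesterone and transgenic libraries overlapped. All 4 were higher in progesterone than in vehicle tumours (median log2 fold change 2.25, 0 called) and lower in vehicle than in transgenic tumours (median -2.64, 0 called). Fibroblast markers (5 of 5) summed to 4911 and 9277 CPM in progesterone, 6698 and 11378 CPM in vehicle, and 7562 and 1804 CPM in transgenic libraries. Most of the sum was Col3a1 in each library. Of the 5 fibroblast markers 1 was higher (Col1a1) and 4 lower in progesterone than in vehicle tumours (median log2 fold change -0.38, 0 called). Red blood cell markers (3 of 3) summed to 75.8 and 146 CPM in progesterone, 2116 and 258 CPM in vehicle, and 2382 and 54.9 CPM in transgenic libraries, with both progesterone libraries below both vehicle libraries. Pericyte and smooth muscle markers (6 of 7 past the filter, Cnn1 near 0) summed to 81.0 and 221 CPM in progesterone, 90.6 and 144 CPM in vehicle, and 95.5 and 171 CPM in transgenic libraries, and were highest in progesterone library 2. Of the adipocyte markers, 1 of 5 passed the filter, Fabp4. It had 7.73 and 29.6 CPM in progesterone, 6.34 and 12.7 CPM in vehicle, and 19.6 and 7.54 CPM in transgenic tumours. Adipoq, the defining marker, stayed at or below 0.413 CPM, with 0 counts in 2 libraries. Of the lymphatic endothelial markers, 2 of 4 passed the filter. The list summed to 7.80 and 98.7 CPM in progesterone, 30.2 and 9.54 CPM in vehicle, and 11.0 and 17.1 CPM in transgenic libraries. In progesterone library 2 most of this was Lyve1, at 94.5 CPM, whereas Flt4 had 4.01 CPM there. The part of these cell types in the Aplnr level was not tested.

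Venous and tip cell markers of endothelium were mixed beside Aplnr. The venous factor gene Nr2f2 had 66.7 and 93.5 CPM in progesterone, 69.7 and 69.2 CPM in vehicle, and 72.1 and 66.3 CPM in transgenic tumours. P-selectin (Selp), an adhesion molecule of venules, had 1.20 and 4.05 CPM in progesterone, 1.10 and 0.954 CPM in vehicle, and 1.18 and 1.10 CPM in transgenic tumours, with most of the excess in progesterone library 2. Angpt2 and Esm1, made by sprouting vessels, were lower in both progesterone libraries than in any other library. Angpt2 had 12.7 and 20.4 CPM in progesterone, 39.7 and 51.7 CPM in vehicle, and 29.6 and 27.2 CPM in transgenic tumours. Esm1 had 1.93 and 5.83 CPM in progesterone, 13.0 and 14.8 CPM in vehicle, and 13.0 and 7.04 CPM in transgenic tumours. Apln too was lower in both progesterone libraries than in any other library. The part of sprouting vessels in the Apln level was not tested. Of this list 5 of 6 passed the filter, and 2 were higher and 3 lower in progesterone than in vehicle tumours (median -0.13, 0 called). The venular receptor gene Ackr1, below the filter, had 0.232 and 1.07 CPM in progesterone, 0.0686 and 0.106 CPM in vehicle, and 0 and 0.0421 CPM in transgenic tumours.

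Other genes of the 2 peptide systems were read from a list of 24, of which 15 passed the filter and 0 were called in either direction in any comparison. In progesterone against vehicle tumours 6 were higher and 9 lower (median log2 fold change -0.088). In vehicle against transgenic tumours 8 were higher and 7 lower (median 0.047), and in progesterone against transgenic tumours 8 were higher and 7 lower (median 0.017). These medians are close to those of all genes. Among the peptides, Adm2 (intermedin), another ligand of Calcrl, had 2.36 and 1.45 CPM in progesterone, 3.84 and 2.12 CPM in vehicle, and 0.963 and 0.506 CPM in transgenic tumours. It was above the transgenic level in both ovariectomized groups, with log2 fold changes of 1.36 ± 0.61 for progesterone and 2.01 ± 0.62 for vehicle tumours. Apela, the second ligand of the apelin receptor, had at most 2 counts in any library, and Calca and Calcb, which encode calcitonin gene-related peptides, at most 2 and 11 counts. Iapp, the amylin gene, had 1 count in all.

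Among the other receptors, the scavenging receptor Ackr3, reported to bind adrenomedullin, was abundant, at 13.1 and 53.3 CPM in progesterone, 26.7 and 35.7 CPM in vehicle, and 29.6 and 33.9 CPM in transgenic tumours. The progesterone libraries were at both ends of its range. The calcitonin receptor gene Calcr had 16 and 4 counts in progesterone, 1 and 3 in vehicle, and 1 and 1 in transgenic libraries, and Gpr182 had 9 counts or fewer. Crcp, a component of calcitonin gene-related peptide signalling, had log2 fold changes between 0.023 and 0.070.

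Of the enzymes that mature the peptides, Pam and Furin passed the filter, and the prohormone convertase Pcsk1 did not, with 14 counts in progesterone library 2 and 0 in the other 5 libraries. Pam, which amidates adrenomedullin, had 585 and 420 CPM in progesterone, 506 and 442 CPM in vehicle, and 395 and 322 CPM in transgenic tumours. Furin, a protease that cleaves pro-apelin, had 153 and 142, 166 and 137, and 154 and 158 CPM in the same groups. Of the enzymes known to cleave peptides of these families, Ece1 ranged from 49.9 to 74.2 CPM, whereas Mme did not pass the filter and stayed at or below 0.827 CPM. Downstream, the G protein genes Gnas, Gnai2, Gnai3 and Gnaq and the arrestin genes Arrb1 and Arrb2 had log2 fold changes between -0.21 and 0.25 in the 3 comparisons. Adcy6 had 56.7 and 85.9 CPM in progesterone, 91.0 and 100 CPM in vehicle, and 81.6 and 79.2 CPM in transgenic tumours. Its log2 fold change was -0.42 ± 0.21 for progesterone against vehicle and 0.25 ± 0.21 for vehicle against transgenic tumours. For Adcy4 these were 0.30 ± 0.68 and -0.14 ± 0.68. Endothelial nitric oxide synthase (Nos3), which both peptides are known to engage, had 3.32 and 9.51 CPM in progesterone, 12.002 and 9.43 CPM in vehicle, and 11.2 and 14.6 CPM in transgenic tumours.

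The genes most like each member were found by the root-mean-square difference of centred log2 CPM over the 6 libraries, among 10230 genes. For Adm these were the immediate early gene Fos (0.0985), the endoplasmic oxidase gene Ero1l (0.146) and the NF-kappaB regulator gene Nfkbiz (0.158). For Apln they were the ectonucleotidase gene Nt5e (0.176), the matricellular gene Ccn1 (0.221) and Rgs16 (0.242), a regulator of G protein signalling. Nt5e had 7.38 and 15.5 CPM in progesterone, 27.9 and 30.7 CPM in vehicle, and 20.8 and 21.0 CPM in transgenic tumours.

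For Aplnr the smallest differences were larger, with the chemokine gene Ccl8 at 0.641, the tenascin gene Tnxb at 0.684 and Tmem8 at 0.716. The difference is not scaled to a gene's own spread, and Aplnr had the widest of the set, 58.3-fold in RPKM. These values therefore cannot show whether Aplnr was matched less closely than the other genes of the set. Ccl8 had 27.3 and 130 CPM in progesterone, 3.36 and 3.02 CPM in vehicle, and 3.15 and 42.0 CPM in transgenic tumours, with progesterone library 1 below transgenic library 2, unlike Aplnr. For Calcrl the nearest were Eps8l1 (0.169), the lymphatic growth factor gene Vegfd (0.176) and Mex3b (0.178). For Ramp2 they were Lrfn4 (0.130), Ly6a (0.139) and Pigyl (0.143), for Ramp3 Epha3 (0.312), Il1b (0.316) and Cebpd (0.324), and for Ramp1 Ccdc62 (0.378), Ssbp2 (0.417) and Ace (0.418).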

How the data were processed

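The authors deposited raw read counts per gene for 6 tumour libraries, 1 column each, with no normalization. Per the submitters' processing notes, HISAT2, HTSeq and DESeq and the build GRCm38.p6 were used. Their settings and any use of the strand in counting were not given in the sources used here. Per the labels' protocols, mRNA was selected from total RNA for a directional kit. Coordinates and exon lengths are from GENCODE M21 (GRCm38, 1-based), promoters from RefSeq.

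Counts were analysed in R 4.3.3 with edgeR 4.0.16 (filterByExpr, TMM, glmQLFit and glmQLFTest, 1 mean per group, 3 residual degrees of freedom, Benjamini-Hochberg over 13632 genes). DESeq2 1.42.0 and limma 3.58.1 were alternatives. SEs come from edgeR's F statistic. CPM is TMM-scaled on library totals, RPKM uses the union of exons, and log2 CPM in list means has a prior count of 2. A count of 3 corresponds to 0.0997 to 0.154 CPM, for counting error only. Fits were tested on simulated data with no outlying library and a spread set by the level of a gene. That test cannot show how the fits perform on these libraries. The labels number libraries but name no pairing. A p-value therefore reflects only how these libraries vary, which may be technical.

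The genes and lists were chosen with earlier results of these data known. Ccl21a and Nkx2-1, also listed as markers, were not analysed here. The values of 1 gene of the pathway list are not reported here. List genes named are the most abundant or those of the pathway list, and for marker lists defining genes chosen after their values were seen. The nearest patterns are the 3 with the smallest difference, with a mean of at least 5 CPM and an informative symbol.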

Additional observations from a re-analysis of the deposited data

How the results depend on the processing

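The counts of called genes stayed at 0 in each comparison with DESeq2's size factors, limma-voom, only the 4 libraries compared, and without each library in turn (0 to 0). Without the filter edgeR called 92 genes for progesterone against vehicle, 12 for vehicle against transgenic and 28 for progesterone against transgenic tumours, and DESeq2 called 75, 66 and 47; the cause was not tested. In the unfiltered fit Apln, Adm and Aplnr were called for progesterone against vehicle (adjusted p of 0.00977, 0.0163 and 0.00594 by edgeR) and Adm for vehicle against transgenic tumours (0.0499); over all edgeR settings with the filter they were not called. Apln and Aplnr kept their direction in all 3 comparisons under all 12 alternatives, as did Adm in the 2 comparisons with vehicle tumours.

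Directions turned mostly when 1 library was left out. For progesterone against vehicle the log2 fold changes then ranged from -0.18 to 0.63 for Calcrl, -1.48 to 0.95 for Ramp1, -0.65 to 0.35 for Ramp2 and -1.31 to 0.33 for Ramp3. For vehicle against transgenic they ranged from -0.049 to 1.03, -0.32 to 1.94, -0.82 to 0.17 and -0.44 to 1.60 for the same genes. For progesterone against transgenic tumours the ranges were -0.36 to 0.61 for Adm, -0.57 to 1.65 for Ramp1 and -1.07 to 1.33 for Ramp3. Ramp3 there was also 0.067 by limma-voom.

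With the replicate number as a block, 0 genes were called in each comparison, Ramp1 was 0.042 for progesterone against vehicle and Ramp3 0.031 for progesterone against transgenic tumours. Deviations of same-numbered libraries correlated at -0.125 between progesterone and vehicle, 0.0804 between vehicle and transgenic and -0.174 between progesterone and transgenic groups. No strong shared effect of the number was seen, which cannot settle whether the numbers pair the libraries. With the progesterone numbers crossed in the replicate block, an alternative chosen after seeing the data, 0 genes were called in the 2 comparisons with progesterone tumours. With 2 libraries a group and Aplnr at 8 counts in each vehicle library, depth limits its vehicle level.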
